A study of Homo sapiens with 6 samples.

Results

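The plasminogen activation system was described here through 8 genes: the activators PLAU and PLAT, the receptors PLAUR, ANXA2 and S100A10, the inhibitors SERPINE2 and SERPINB2, and the zymogen gene PLG. They were chosen by gene symbol and role, with earlier results of these data known. Of the 8, 7 matched a probe set with 1 symbol, out of 22350 genes so named on the array, and SERPINB2 was not analysed here. In the comparison across genes 6 of the 7 were tested, since PLG was too dim. The arrays carried RNA from U87 MG, an established glioblastoma line. On 3 arrays the cells were a stable line carrying a plasmid for GUCY1B3, the beta subunit of the nitric oxide receptor soluble guanylate cyclase, and on 3 they were U87 MG cells labelled as the control. The cells were untreated and grown in DMEM with serum. No empty-vector line is named, so GUCY1B3 cannot be told apart from other features of the stable line. Whether replicates came from distinct cultures, or the stable line from 1 clone, is not in the labels, so p-values reflect array-to-array spread that may be technical only.

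Plasminogen is a circulating zymogen that urokinase (PLAU) and tissue-type activator (PLAT) cleave to plasmin, a serine protease that degrades fibrin and matrix proteins. Urokinase is held at the cell surface by its receptor PLAUR, while the annexin A2 and S100A10 heterotetramer binds plasminogen and tissue-type activator, and serpins such as protease nexin-1 (SERPINE2) trap the activators. In gliomas the urokinase system is known for its link to invasion.

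The values are log2 RMA expression, in which a difference of 1 is a doubling. The array medians over all features lay between 4.97 and 5.03, and Pearson correlations between arrays across tested genes, which are not independent, between 0.982 and 0.997. Control array 3 stood apart from the other controls: it correlated at 0.989 and 0.987 with control arrays 1 and 2 and at 0.987 to 0.989 with the overexpression arrays, whereas control arrays 1 and 2 correlated at 0.995 with each other. Without it 2050 of 15800 tested genes passed as higher and 1577 as lower, against 1010 and 717 with all arrays. The targeted gene, listed as GUCY1B1, read 8.23 ± 0.16 in overexpression and 7.55 ± 0.13 in control (SD, n = 3 each). The difference was 0.68 (limma adjusted p = 0.00432, and 0.0783 with an ordinary equal-variance test). Of 8 fixed markers of a glial or mesenchymal line, VIM and CD44 read 12.15 and 10.54 in overexpression and 12.09 and 10.47 in control, whereas GFAP read 5.80 and 5.70, and FABP7 (3.70 and 3.71) lay below the array medians. NES, an intermediate filament of neural progenitors, rose by 0.53, and the sum of log2 values over the 8 markers was 56.5 to 57.1 in overexpression and 55.4 to 56.1 in control. Its part in the results below was not tested. Of the epithelial, endothelial and leukocyte markers 0 of 11 tested genes passed the threshold, where 10.9% of all tested genes did. The filter on low values kept 3 of 6 epithelial, 5 of 6 endothelial and 3 of 6 leukocyte markers. EPCAM, PECAM1 and PTPRC lay below the array medians, whereas CD68, a macrophage marker, read 10.96 in overexpression and 10.98 in control, CLDN5 6.48 and 6.38, KRT19 5.67 and 5.71, and KDR 5.45 and 5.27. The sums of log2 values were 29.3 to 29.6 in overexpression and 29.4 to 29.8 in control for the epithelial markers, 31.3 to 31.8 and 30.9 to 31.7 for the endothelial ones, and 33.6 to 34.2 and 33.3 to 34.1 for the leukocyte ones.

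Both plasminogen activator genes were higher in the GUCY1B3 line, while the urokinase receptor, the annexin A2 and S100A10 genes and SERPINE2 did not pass the test. PLAU rose 1.47-fold and PLAT 1.29-fold. Of 6 tested genes 2 rose and 0 fell at an adjusted p under 0.05 (limma), where 10.9% of 15800 tested genes passed, 6.39% as higher and 4.54% as lower. The median difference was 0.08 over the 6 genes and 0.02 over all tested genes. The groups did not overlap in 2 of the 6 genes, against 29.2% of tested genes. In RNA from a whole culture, a different share of cells and a different amount of transcript per cell cannot be told apart.

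**Figure D1:**
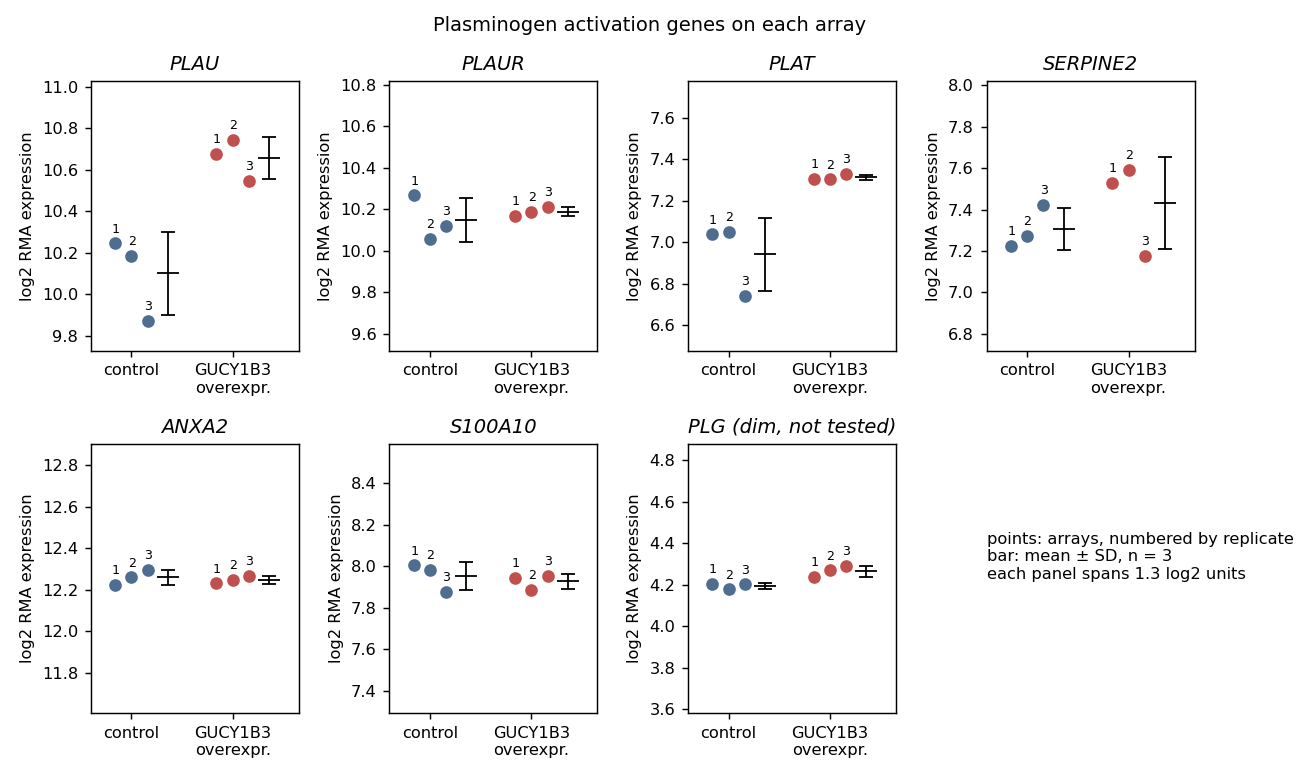
Log2 RMA expression (vertical axis) of the 7 measured genes on each array, control in blue and GUCY1B3 overexpression in red, numbered by replicate, with the mean and SD over 3 arrays beside the points. For PLAU and PLAT all 3 overexpression arrays lie above all 3 control arrays, and control array 3 is the lowest, whereas PLAUR, SERPINE2, ANXA2 and S100A10 overlap.

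PLAU encodes urokinase, the activator bound to the cell surface. Its probe set (TC10000475.hg.1, chromosome 10) read 10.67, 10.74 and 10.55 on overexpression arrays 1 to 3 and 10.24, 10.18 and 9.87 on control arrays 1 to 3. Every overexpression array was above every control array, and control array 3 was the lowest of the 6, at a difference of -0.34 from the mean of the other controls. Overexpression averaged 10.66 ± 0.10 and control 10.10 ± 0.20 (SD, n = 3 each). The difference was 0.56 (SE 0.10, 95% interval 0.32 to 0.79, limma adjusted p = 0.0121). This difference was higher than that of 99.2% of tested genes. Without control array 3 it was 0.44 (adjusted p = 0.00186). The call ended without overexpression array 1 (adjusted p = 0.0619) or array 2 (adjusted p = 0.0683), and with an ordinary equal-variance test in place of limma's moderated one (adjusted p = 0.125).

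The sequence before the PLAU start is shown beside that of PLAUR, its receptor gene, as the ligand rose and the receptor did not pass the test. Both are RefSeq windows of 300 bases on GRCh38.p14, from 250 bases before the gene start to 50 after it, with GC boxes (GGGCGG) and AP-1 motifs (TGANTCA) on either strand in capitals. PLAU lies on the plus strand at chr10:73910882-73911181 and PLAUR on the minus strand at chr19:43670120-43670419.
PLAU: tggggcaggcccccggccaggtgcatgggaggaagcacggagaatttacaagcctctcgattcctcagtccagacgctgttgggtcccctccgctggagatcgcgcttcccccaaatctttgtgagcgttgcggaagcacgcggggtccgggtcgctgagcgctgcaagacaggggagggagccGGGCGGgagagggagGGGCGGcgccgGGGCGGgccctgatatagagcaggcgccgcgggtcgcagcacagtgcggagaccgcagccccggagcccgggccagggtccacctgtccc
PLAUR: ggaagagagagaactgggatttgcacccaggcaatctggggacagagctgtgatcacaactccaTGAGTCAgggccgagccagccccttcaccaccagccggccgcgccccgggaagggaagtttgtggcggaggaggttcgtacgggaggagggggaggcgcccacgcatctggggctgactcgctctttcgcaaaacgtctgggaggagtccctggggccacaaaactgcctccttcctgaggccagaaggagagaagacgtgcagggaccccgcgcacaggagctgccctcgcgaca
The PLAU window held 3 GC boxes, which began 66, 51 and 40 bases upstream of the start, and 0 AP-1 motifs. The PLAUR window held 1 AP-1 motif, TGAGTCA, 186 bases upstream, and 0 GC boxes. The capitals of different motifs did not overlap. Among all 35116 RefSeq windows of this length 45.0% held a GC box and 7.71% an AP-1 motif. RefSeq gave 10 windows for 7 of the 8 genes, and PLAT, which also rose, had no window. A second PLAU window, chr10:73910360-73910659, held neither motif. Of the 10 windows 5 held a GC box (PLAU, ANXA2, S100A10 and those of SERPINE2) and 3 an AP-1 motif (PLAUR, ANXA2 and SERPINB2). The ANXA2 window held 3 GC boxes as well, and the ANXA2 difference was -0.01. The TATA box TATAAA, held by 11.5% of all windows, was in 2 of the 10, those of ANXA2 and SERPINB2, and the cyclic AMP response element TGACGTCA, held by 1.85% of all, in 0. These matches describe letters in the windows and were not tested as binding sites. Sequence outside the windows was not searched, so 0 matches in a window does not mean that the gene lacks the motif.

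PLAT encodes the tissue-type activator, which cleaves plasminogen and is also expressed in brain. Its probe set (TC08001175.hg.1, chromosome 8) read 7.30, 7.30 and 7.33 on overexpression arrays 1 to 3 and 7.04, 7.05 and 6.74 on control arrays 1 to 3. The overexpression arrays were all higher than the controls and nearly level with one another, and control array 3 was again the lowest, at a difference of -0.30 from the mean of the other controls. Overexpression averaged 7.31 ± 0.01 and control 6.94 ± 0.18 (SD, n = 3 each). The difference was 0.37 (SE 0.08, 95% interval 0.18 to 0.56, limma adjusted p = 0.0285), higher than that of 97.2% of tested genes. Without control array 3 the difference was 0.27 (adjusted p = 0.00583). The call ended without any 1 of overexpression arrays 1, 2 or 3 (adjusted p = 0.105, 0.103 and 0.0970) and with the ordinary test (adjusted p = 0.157). It also ended when replicate number was added to the limma fit as a block (adjusted p = 0.0626).

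**Figure D2:**
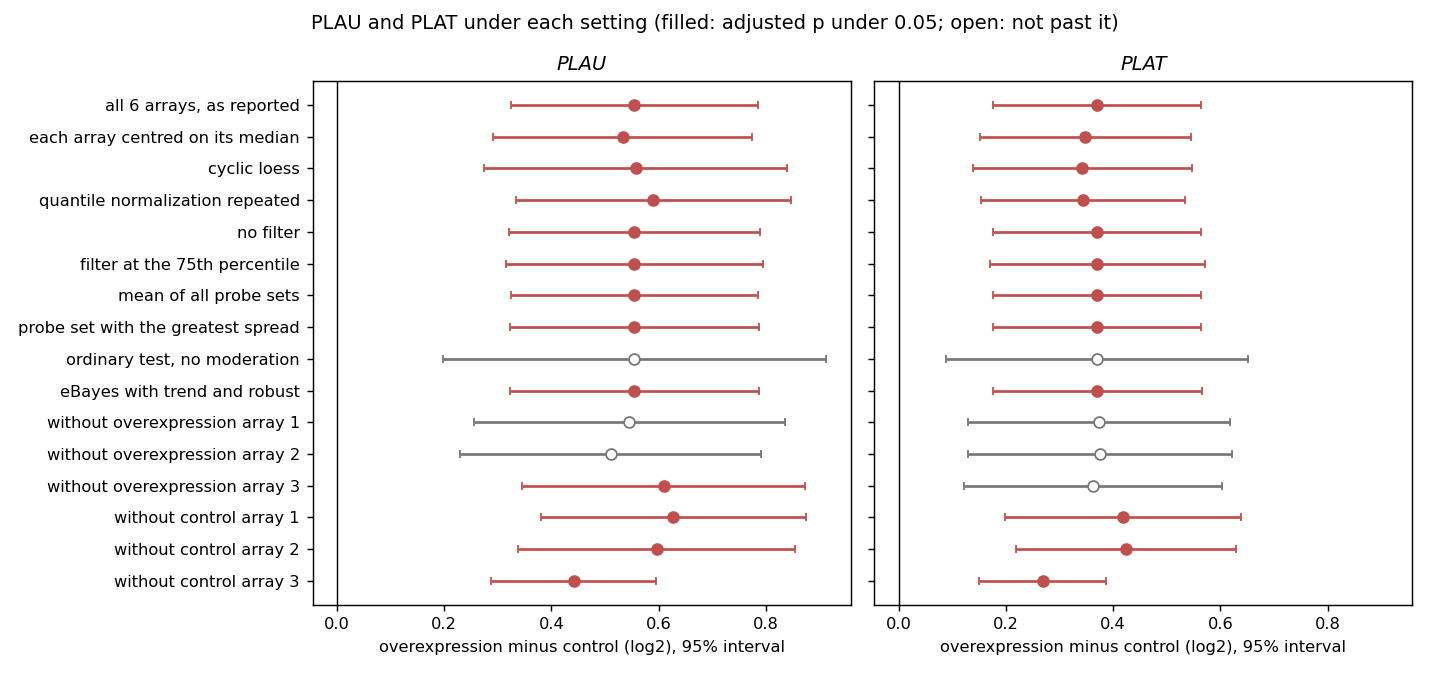
Difference between overexpression and control (log2, horizontal axis, with the unadjusted 95% interval) of PLAU and PLAT. Settings drawn are all arrays, each alternative except the replicate block, and each array left out. The differences stay above 0 in every setting drawn, between 0.44 and 0.63 for PLAU and between 0.27 and 0.42 for PLAT, and open points mark settings that did not pass the adjusted threshold.

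PLG, the zymogen gene, is known mainly from liver. Its probe set (TC06001158.hg.1, chromosome 6) read 4.24, 4.27 and 4.29 on overexpression arrays 1 to 3 and 4.21, 4.18 and 4.20 on control arrays 1 to 3. All 6 values were below the array medians, so PLG was left out by the filter. The overexpression arrays were slightly the higher, by 0.07 (95% interval -0.03 to 0.17), and in the fit without that filter the adjusted p was 0.471 (limma).

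PLAUR encodes the urokinase receptor, a membrane protein anchored by glycolipid. Its probe set (TC19001593.hg.1, chromosome 19) read 10.17, 10.19 and 10.21 on overexpression arrays 1 to 3 and 10.27, 10.06 and 10.12 on control arrays 1 to 3. The overexpression values lay within the range of the controls. The difference was 0.04 (95% interval -0.11 to 0.19, limma adjusted p = 0.774), so the interval ran from 0.929-fold to 1.14-fold. A change beyond these bounds lies outside that interval, but a smaller one was not detectable with 3 arrays a group.

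ANXA2 encodes annexin A2, a calcium-dependent membrane-binding protein. Its probe set (TC15001505.hg.1, chromosome 15) read 12.23, 12.25 and 12.27 on overexpression arrays 1 to 3 and 12.23, 12.26 and 12.29 on control arrays 1 to 3. The groups overlapped almost completely, with a difference of -0.01 (95% interval -0.13 to 0.10, limma adjusted p = 0.926). The processed copies ANXA2P1, ANXA2P2 and ANXA2P3 share sequence with ANXA2, so the signal may come from any of them. Their differences were -0.07, 0.01 and 0.03, and 0 of the 3 passed the threshold. ANXA2P2 read 12.22 in overexpression and 12.21 in control, near the level of ANXA2. The other copies read far lower, ANXA2P1 at 6.75 and 6.82 and ANXA2P3 at 5.89 and 5.86.

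S100A10 encodes p11, the partner of annexin A2 in the heterotetramer. Its probe set (TC01003239.hg.1, chromosome 1) read 7.94, 7.89 and 7.95 on overexpression arrays 1 to 3 and 8.003, 7.98 and 7.87 on control arrays 1 to 3. The groups overlapped, with a difference of -0.03 (95% interval -0.16 to 0.10, limma adjusted p = 0.843).

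SERPINE2 encodes protease nexin-1, a serpin that inhibits thrombin, urokinase and tissue-type activator. Its probe set (TC02002823.hg.1, chromosome 2) read 7.53, 7.59 and 7.18 on overexpression arrays 1 to 3 and 7.22, 7.27 and 7.42 on control arrays 1 to 3. Overexpression array 3 was the lowest of the 6 arrays and arrays 1 and 2 the highest, so the groups overlapped. Overexpression averaged 7.43 ± 0.22 and control 7.31 ± 0.10 (SD, n = 3 each). The difference was 0.13 (95% interval -0.12 to 0.37, limma adjusted p = 0.561). With 1 array left out the difference ran from 0.0459 without overexpression array 2 (adjusted p = 0.850) to 0.25 without overexpression array 3 (adjusted p = 0.131).

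**Figure D3:**
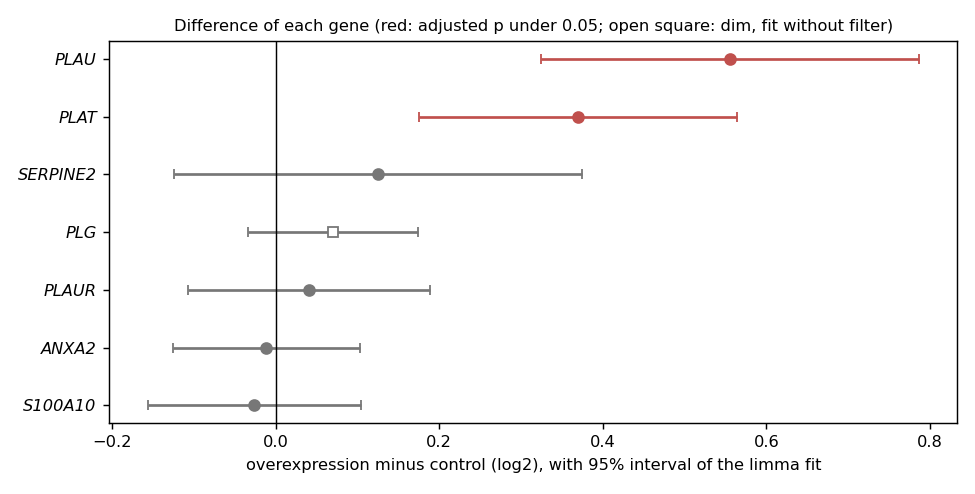
Difference between overexpression and control (log2, horizontal axis) for each measured gene, with the unadjusted 95% interval of the limma fit, and PLG as an open square from the fit without a filter. The intervals of PLAU and PLAT lie above 0, and those of the other 5 genes include 0.

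The changes of the activators were also set against those of the other genes within each array, a choice made after the values were seen. In 8 pairs, PLAU or PLAT against PLAUR, SERPINE2, ANXA2 or S100A10, the log2 difference between the genes was taken on each array and compared between groups by an exact two-sided permutation test. PLAU rose by 0.51 more than PLAUR, by 0.43 more than SERPINE2, by 0.57 more than ANXA2 and by 0.58 more than S100A10. PLAT rose by 0.33 more than PLAUR, by 0.38 more than ANXA2 and by 0.40 more than S100A10. In these 7 pairs the groups did not overlap and the exact p was 0.1, the smallest that 3 arrays against 3 allow (0.114 adjusted over the 8 pairs), so none could pass a threshold of 0.05. PLAT against SERPINE2 differed by 0.25 with overlapping groups (exact p = 0.5). All 8 pairs reuse PLAU or PLAT, whose own groups did not overlap, so the pairs restate those differences and are no independent evidence.

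PLAU had the widest range of the 7 genes over the 6 arrays, 0.87. Among 171 tested genes with a range of at least 1, the 5 with the highest Pearson r to PLAU over the 6 arrays were CYP2S1, a cytochrome P450 (r = 0.987), the small nucleolar RNA gene SNORD116-17 (0.949), TGFB1I1, a LIM protein of focal adhesions (0.946), IFITM2, an interferon-induced membrane protein (0.938), and BEX1 (0.934). They rose by 0.84, 0.73, 0.71, 0.86 and 1.11, and in all 5 control array 3 was also the lowest array. These r values are a description over 6 arrays that share the group difference. The 5 genes were picked for likeness to PLAU, so their rise and low control array 3 are no independent finding. SNORD116-17 and IFITM2 have near-identical relatives, so their signal cannot be assigned with certainty. Leaving out overexpression array 1 or 2 ended the calls of SNORD116-17 (adjusted p = 0.0514 and 0.0604), TGFB1I1 (0.0905 and 0.0609) and IFITM2 (0.0642 and 0.0585), and leaving out overexpression array 3 ended those of TGFB1I1 (0.0652) and IFITM2 (0.0570). With the ordinary test all calls but that of BEX1 ended (adjusted p = 0.0708 to 0.163).

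Beyond the 8 genes, lists of the wider system were read from the same fit. In that fit 6.39% of all tested genes passed as higher and 4.54% as lower. Of 5 tested further inhibitors, out of 12 listed and 10 with a probe set, 0 rose and 0 fell (limma), with 0 at an unadjusted p under 0.05 and 0 by the ordinary test. Their differences lay between -0.01 and 0.06, and SERPINF2, alpha2-antiplasmin, had the smallest p (difference 0.06 with 5.96 ± 0.10 against 5.90 ± 0.06, SD, n = 3 each, adjusted p = 0.693). Of 7 further plasminogen-binding genes 0 passed, with 1 at an unadjusted p under 0.05 and 0 by the ordinary test. That gene was the plasminogen receptor PLGRKT, at 6.33 ± 0.05 against 6.11 ± 0.09 (SD, n = 3 each), a difference of 0.21 (adjusted p = 0.0716). It passed without control array 3 (adjusted p = 0.0463). THBS1, thrombospondin-1, was named after its values were seen. It read 8.10, 8.22 and 7.31 on overexpression arrays 1 to 3 and 7.43, 7.31 and 7.60 on control arrays 1 to 3, with array 3 low in the first group. The difference was 0.43 (adjusted p = 0.254). With 1 array left out it ran from 0.26 without overexpression array 2 (adjusted p = 0.543) to 0.71 without overexpression array 3 (adjusted p = 0.0105), the only one of the 16 alternatives in which it passed.

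Among clearance receptors and partners of the urokinase receptor 0 of 14 tested genes rose and 1 fell (median difference -0.08). This was ITGAV, the vitronectin-binding integrin subunit, which fell by 0.70 (8.11 ± 0.07 against 8.82 ± 0.03, SD, n = 3 each, limma adjusted p = 0.000422). LRP1, the receptor that clears activators bound to inhibitors, read 8.88, 8.87 and 9.12 on overexpression arrays 1 to 3 and 9.23, 9.62 and 8.74 on control arrays 1 to 3. It was named after its values were seen, and did not pass (difference -0.24, adjusted p = 0.526). Its difference was -0.02 without control array 2 (adjusted p = 0.962) and -0.47 without control array 3 (adjusted p = 0.0168), in which it was the lowest of the 6. VLDLR, also named after its values were seen, differed by -0.48 (adjusted p = 0.139) and by -0.67 without control array 3 (adjusted p = 0.00461). Without that array 5 of the 14 genes passed as lower, where 9.98% of all tested genes did, against 4.54% with all arrays.

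The greatest falls in these lists were of genes that act on the system or are cut by it. Of 6 tested proteases listed as acting on pro-urokinase 0 rose and 1 fell, where 6.39% of all tested genes rose and 4.54% fell. This was MMP3, a stromelysin known mainly for cleaving matrix proteins and collagenase precursors, with a difference of -2.37 (adjusted p = 0.0157, limma). MMP3 averaged 7.33 ± 0.07 in overexpression and 9.70 ± 1.15 in control (SD, n = 3 each). Its control arrays 1 to 3 spread widely, at 10.83, 9.74 and 8.53. With 1 array left out the difference ran from -1.80 to -2.95. Leaving out overexpression array 1, 2 or 3 ended its call (adjusted p = 0.0703, 0.0738 and 0.0556). Cathepsins B and L, CTSB and CTSL, differed by 0.10 each and did not pass, and were named after their values were seen. Of 14 tested substrates of plasmin or its activators 1 rose and 5 fell (median difference -0.07), where 6.39% and 4.54% of all tested genes did. The members that fell were the collagenase MMP1 (-2.92, adjusted p = 0.000335), HGF, whose precursor urokinase can cleave (-1.62, adjusted p = 0.00421), the laminin chains LAMA4 (-0.84, adjusted p = 0.00459) and LAMC1 (-0.34, adjusted p = 0.0413), and LTBP1, which tethers latent TGF-beta to matrix (-0.74, adjusted p = 0.00690). F2R, the thrombin receptor, rose by 0.22 (adjusted p = 0.0274). LAMC1 kept its call without control array 3 but lost it without any other single array (adjusted p = 0.0936 to 0.163), without the filter (0.0562) and with each of the 3 other normalizations (0.0522 to 0.0616). F2R lost its call without any 1 array except control array 3 (adjusted p = 0.0543 to 0.111). With the ordinary test the calls of MMP3, HGF, LAMA4, LTBP1 and LAMC1 ended (adjusted p = 0.0897 to 0.187) and those of MMP1, ITGAV and F2R remained, and with trend and robust eBayes that of MMP3 ended (0.0600). The fibrinogen genes FGA, FGB and FGG were too dim to be tested, and FN1, fibronectin, differed by 0.10 (adjusted p = 0.685). These lists were written with earlier results of the same data known, so their direction is no independent evidence.

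**Figure D4:**
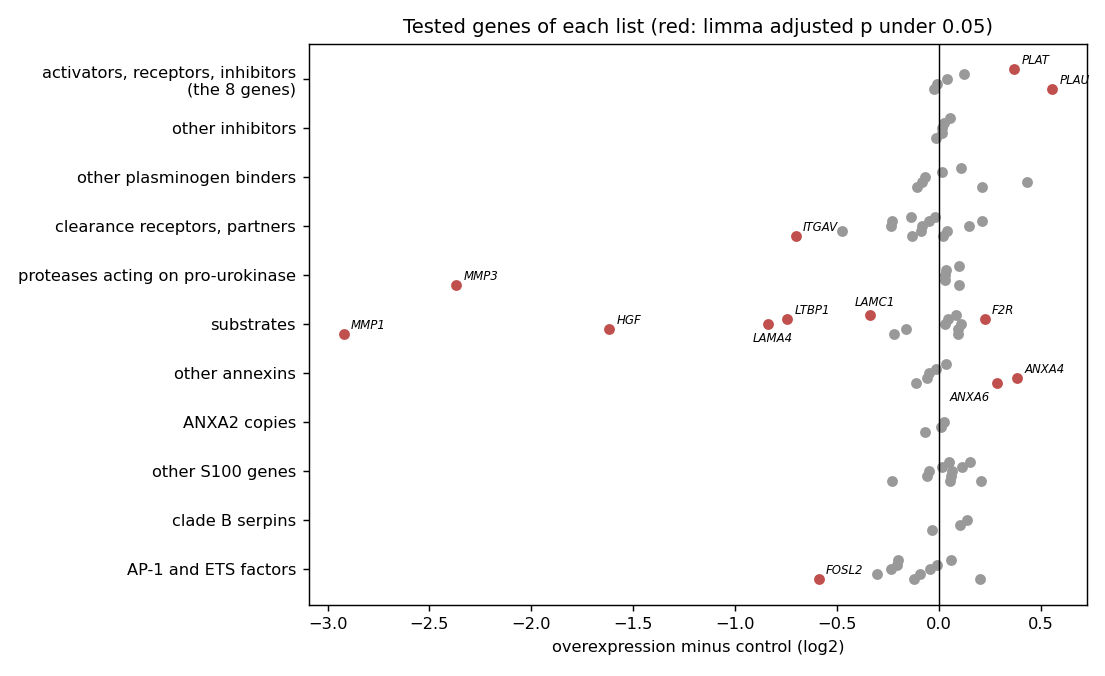
Difference between overexpression and control (log2, horizontal axis) of every tested gene in each list (rows), with genes past the adjusted threshold in red and named. PLAU and PLAT lie on the higher side, while MMP1, MMP3 and HGF have the greatest falls among the genes drawn.

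Relatives of the 8 genes were read in the same way. Over all tested genes 6.39% passed as higher and 4.54% as lower. Of 7 other tested annexins 2 rose and 0 fell: ANXA4 by 0.38 (7.75 ± 0.02 against 7.37 ± 0.17, SD, n = 3 each, limma adjusted p = 0.0245) and ANXA6 by 0.28 (9.44 ± 0.02 against 9.16 ± 0.08, adjusted p = 0.0180). ANXA4 lost its call without any 1 array except control array 3 (adjusted p = 0.0678 to 0.103), and ANXA6 without overexpression array 1, 2 or 3 or control array 1 (adjusted p = 0.0568 to 0.0796), and both with the ordinary test (0.150 and 0.0745). Of 11 other tested S100 genes 0 passed (2 at an unadjusted p under 0.05 and 0 by the ordinary test), and S100A13 had the smallest p (difference 0.21, adjusted p = 0.119). It passed without control array 3 (adjusted p = 0.0143). Of 3 tested clade B serpins, the family of SERPINB2, 0 passed, with 0 at an unadjusted p under 0.05 and 0 by the ordinary test, and SERPINB8 differed by 0.14 (adjusted p = 0.208).

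Of 11 tested AP-1 and ETS family genes, which encode transcription factors known to act on PLAU and PLAUR, 0 rose and 1 fell (median difference -0.12). Over all tested genes 6.39% rose and 4.54% fell. FOSL2, an AP-1 subunit, fell by 0.59 (7.79 ± 0.03 against 8.38 ± 0.30, SD, n = 3 each, limma adjusted p = 0.0243). Its call ended without any 1 array except control array 3 (adjusted p = 0.0619 to 0.104) and with the ordinary test (0.175). The AP-1 genes FOSL1, JUNB, JUND and JUN, named after their values were seen, did not pass. FOSL1 differed by -0.20 (adjusted p = 0.539), JUNB by -0.30 (adjusted p = 0.128) and JUND by -0.23 (adjusted p = 0.234). JUN lay the other way, at 0.20 with groups that did not overlap (adjusted p = 0.109). With 1 array left out FOSL1 ran from -0.06 without control array 1 (adjusted p = 0.864) to -0.43 without control array 3 (adjusted p = 0.00101). Without control array 3, 6 of the 11 genes passed as lower, where 9.98% of all tested genes did.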

How the data were processed

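Transcript levels came from 6 one-colour Affymetrix arrays. The authors deposited log2 expression values made by RMA in Affymetrix Expression Console, per the submitters' processing notes, a procedure of background correction, quantile normalization and probe set summary. The software version and genome build are not stated in the labels, and detection calls were not used. Of 70523 features 23781 had 1 symbol in the platform annotation, updated through RefSeq (GRCh38.p14). Each of the 7 measured members had 1 probe set. For other genes the probe set with the highest mean was kept, Y-linked genes were left out, and a gene was tested when above the array median on at least 3 arrays. Groups were compared by limma 3.58.1 in R 4.3.3 (lmFit and eBayes, no covariate), with Benjamini-Hochberg adjustment over 15800 genes at 0.05. Residual degrees of freedom were 4 and prior ones 4.37. The 95% intervals are unadjusted. The procedure was tested on simulated data. Python 3.11.15, pandas 2.3.3, numpy 2.4.6 and matplotlib 3.10.9 served for tables and plots. The number of arrays limits the precision.

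The members and lists were chosen with earlier results of these data known. Genes named were the 8 members, GUCY1B3, up to 5 called genes per list by size (otherwise the one with the smallest p), and the 5 genes most like the member with the widest range. F2R, EGFR, ANXA2P2, ANXA2P3, FGA, FGB, FGG, FN1, the genes of the line check and the genes said to be named after their values were seen fall outside this rule. Alternatives covered normalization, filter, probe set choice, moderation, a replicate block and leaving out each array.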

Additional observations from a re-analysis of the deposited data

How the results depend on the processing

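PLAU and PLAT stayed above 0 in all 16 alternatives run. PLAU ranged from 0.44 to 0.63 with 1 array left out and from 0.53 to 0.59 otherwise, and PLAT from 0.27 to 0.42 and from 0.34 to 0.37. With the ordinary test their differences of 0.56 and 0.37 did not pass (adjusted p = 0.125 and 0.157), and 0 members were called. With 1 array left out 0 to 2 members were called higher. The replicate numbers are shared only as numbers: deviations of same-numbered arrays correlated at 0.28, -0.10 and -0.24, and overexpression arrays 2 and 3 correlated best with control arrays 3 and 2. With the replicate block 589 genes were higher and 439 lower, 1 member was called (PLAU), PLAT at 0.37 had an adjusted p of 0.0626, and 0 substrates, 0 annexins and 0 AP-1 or ETS genes were called as higher, higher and lower. With 1 array left out PLAUR ranged from -0.0036 (without control array 2) to 0.1009 and ANXA2 from -0.0285 to 0.0058 (without control array 3), and cyclic loess gave ANXA2 0.0077. SERPINE2 ranged from 0.0459 to 0.25. The sign changes had adjusted p from 0.953 to 0.990. Over all tested genes, 1010 were higher and 717 lower, against 246 and 170 with the ordinary test, 309 to 2050 and 215 to 1577 with 1 array left out. With each array centred on its median 719 were higher and 688 lower, with cyclic loess 867 and 834, and with quantile normalization repeated 929 and 776. Higher genes made up 51.1%, 51.0% and 54.5% of these calls, against 58.5% with the deposited values, so their excess depended on normalization. The count of higher genes was 334, 309 and 431 without overexpression arrays 1 to 3, 562 when control array 1 was left out and 2050 when control array 3 was, and that of lower genes 215, 264, 297, 460 and 1577. In the lists, 1 array left out gave 0 to 1 plasminogen binders higher, 1 to 5 receptor partners lower, 0 to 1 proteases acting on pro-urokinase lower, 0 to 1 substrates higher, 4 to 7 substrates lower, 0 to 2 annexins higher and 0 to 1 lower, 0 to 1 S100 genes higher and 0 to 1 lower, 0 to 6 AP-1 or ETS genes lower and 0 to 1 endothelial markers higher. With the ordinary test 2 receptor partners (EGFR and ITGAV), 0 proteases acting on pro-urokinase, 1 substrate and 0 AP-1 or ETS genes were lower and 0 annexins higher. With trend and robust eBayes 0 proteases acting on pro-urokinase were lower. With the mean of all probe sets or the most variable one 2 glial or mesenchymal markers (NES and CD44) were higher. The cause of these shifts was not tested. PLG was run without the filter only, so the alternatives on filter and probe set gave it no value.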
